A study of Mus musculus with 12 samples.

Results

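Macrophages are the most abundant immune cells of the healthy heart, and complement C1q is a protein that macrophages secrete. The 35 genes described here are the 3 chains of C1q and 32 genes by which macrophages and their states are usually recognised. They fall into 6 role classes: C1q chains (3), resident macrophage genes (8), pan-macrophage and myeloid receptors (13), Fc receptors and adaptors (4), recruited and lipid-associated macrophage genes (3) and antigen presentation (4). The rule names the genes by symbol and uses no measured value, but the choice was made with earlier results of these data known. Each symbol was matched to the Ensembl identifiers of the count files. All 35 were among the 54146 gene records of each library, and all 35 were among the 15477 genes with enough counts to be tested.

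Polyadenylated RNA from mouse hearts was sequenced in 3 groups of 4 libraries, all taken 6 weeks after surgery. TAC KO hearts came from mice lacking Nron, a long noncoding RNA, after transverse aortic constriction (TAC), an operation that narrows the aorta and puts a pressure load on the left ventricle. TAC WT hearts came from wild-type mice after TAC, and Sham WT hearts from wild-type mice after an operation without the constriction. How Nron was removed is not given in the sources used here, nor are strain, sex or age. A sham-operated knockout group was not analysed here, so TAC KO against Sham WT changes genotype and surgery together. Likewise, a difference between TAC KO and TAC WT cannot be told apart from a genotype difference already present without TAC. The labels do not say that the libraries of a group came from separate animals, so each p-value measures the spread between these samples, which may be technical. Libraries are numbered 1 to 4 within a group in the order of deposit, which only names them.

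As background, tissue-resident macrophages of the mouse heart settle there before birth, renew themselves locally, engulf dying cells and carry surface receptors such as Timd4, Lyve1, Folr2 and Mrc1. Blood monocytes that express Ccr2 add further macrophages after injury or pressure load. C1q is the recognition molecule of the classical complement pathway: it binds antibody complexes and dying cells, and it activates the proteases C1r and C1s. Resident and recruited macrophages can both take up antigen and present it on MHC class II molecules.

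Library totals ran from 28565856 to 35777820 counts in TAC KO, from 26288519 to 35945770 in TAC WT and from 27596898 to 35491024 in Sham WT. Both gene records of Nron had 0 counts in all 12 libraries, so the genotype labels could not be checked with it. A count of 0 allows up to 3 counts, or 0.082 to 0.11 CPM (counts scaled to a library of 1000000 counts), counting error only. Cardiomyocyte markers made up 77460 to 83090 CPM in TAC KO, 76700 to 81230 in TAC WT and 83260 to 94810 in Sham WT, which fits the heart label, and every member was detected in every library. The library TAC WT 2 stood apart for these genes: it was the lowest of its group for 27 of 35 members and the lowest of all 12 libraries for 21, with a median ratio to its group mean of 0.759. Its total of 33103962 counts and its mitochondrial share of 19.17% lay inside the range of its group. Where leaving out TAC WT 2 ended a call or moved a count, this is given beside the result or in a later paragraph. Libraries also differed in how counts moved with GC content: relative to each gene's mean over the libraries, the top quintile of genes by GC content minus the bottom quintile gave log2 differences of 0.104 to 0.429 in TAC KO libraries, -0.149 to -0.0613 in TAC WT and -0.12 to -0.0411 in Sham WT.

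All C1q chains and a subset of the macrophage genes were higher in TAC KO than in TAC WT hearts. Whether role classes differ from each other was not tested. In TAC KO, all 3 C1q chains, 4 of 8 resident genes, 3 of 13 pan-macrophage genes and 2 of 4 Fc receptor and adaptor genes rose, while none of the 3 recruited and lipid-associated genes and none of the 4 antigen presentation genes passed the test. The largest differences were in the resident genes Timd4, Folr2 and Cbr2, with log2 fold changes of 0.95 to 1.12. In total, 12 of 35 members were called higher and 0 lower at an adjusted p under 0.05 (edgeR quasi-likelihood F-test, Benjamini-Hochberg adjustment over all 15477 tested genes). That is 34.3% of the members called higher, beside 15.7% of all tested genes called higher and 33.0% called in either direction. Above 0, a log2 fold change means higher in the group named first. The members' median log2 fold change was 0.28, beside -0.00205 for all tested genes, and 32 of 35 members were above 0, as were 49.7% of all genes. Groups did not overlap for 9 members (25.7%), all higher in TAC KO, beside 13.3% of all genes. In RNA from whole hearts, more macrophages and more RNA of these genes per macrophage cannot be told apart.

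**Figure D1:**
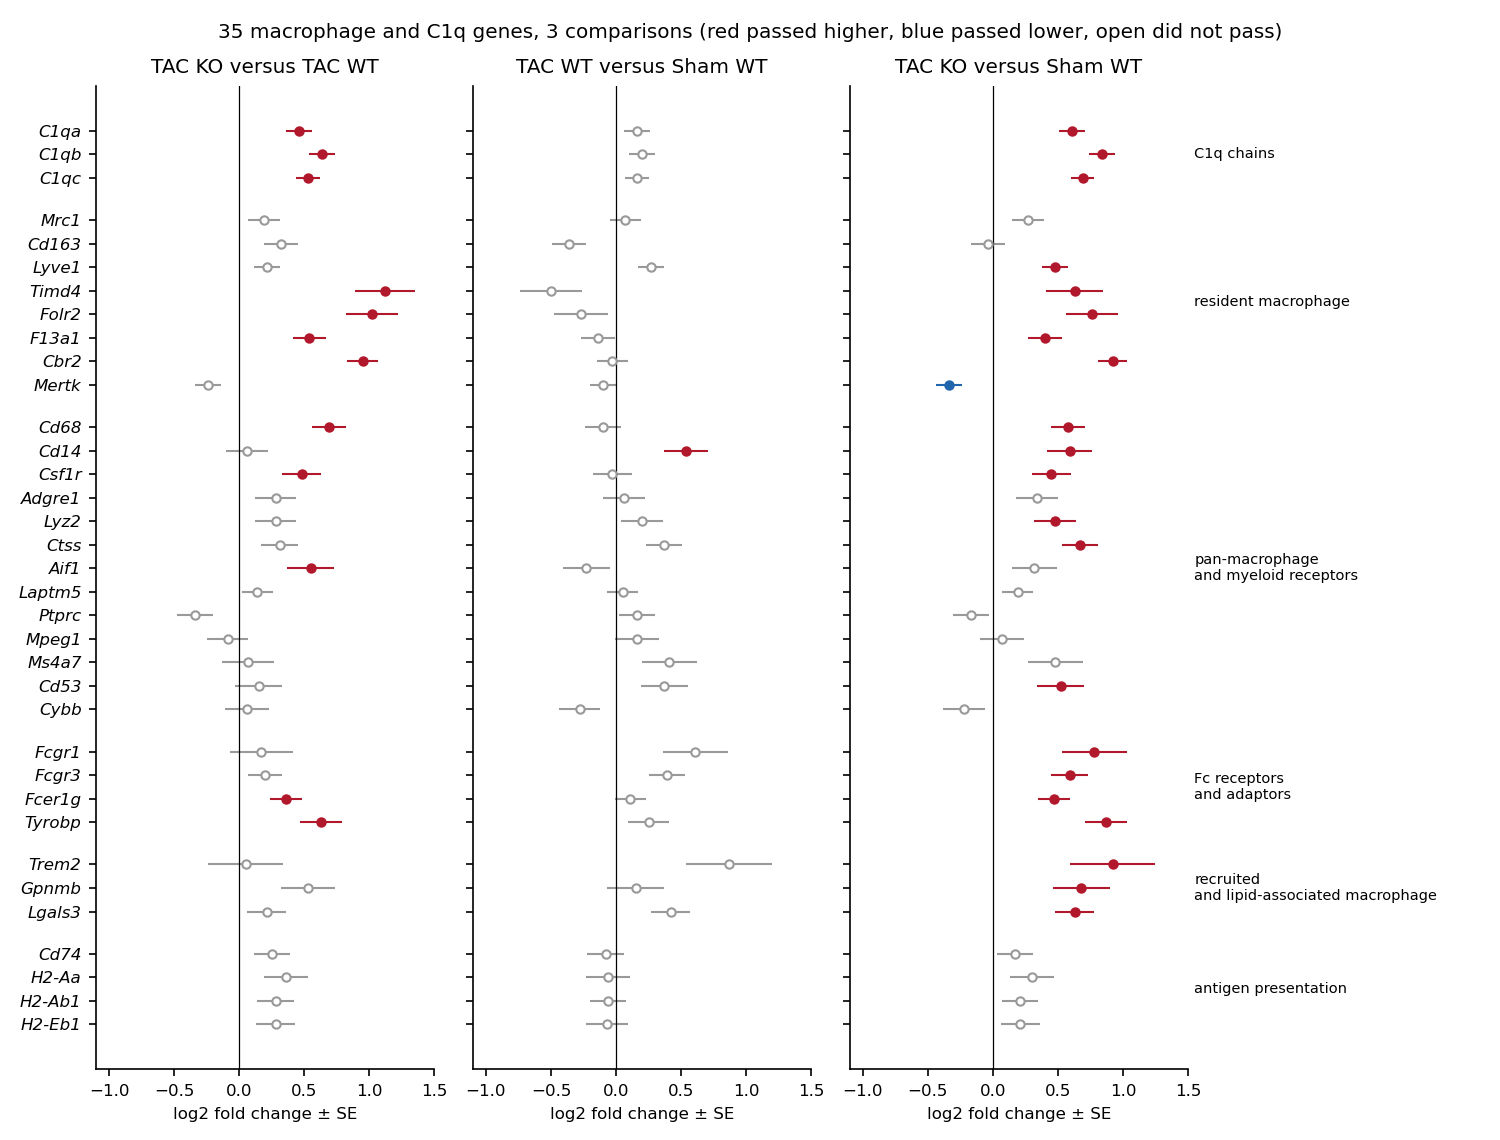
Log2 fold change with its standard error (horizontal axis) for the 35 members in rows, grouped by role class, in TAC KO versus TAC WT (left), TAC WT versus Sham WT (middle) and TAC KO versus Sham WT (right). Filled red points were called higher and filled blue points lower: 12 and 0 members on the left, 1 and 0 in the middle, 21 and 1 on the right.

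The 3 chains of C1q are encoded side by side on the minus strand of chromosome 4 (GRCm38), with C1qb at 136880129 to 136886187, C1qc at 136889804 to 136893065 and C1qa at 136895917 to 136898803. Among the resident genes with the largest differences, Timd4 lies on the plus strand of chromosome 11 at 46810800 to 46844332, Cbr2 on its minus strand at 120729489 to 120732114, and Folr2 on the minus strand of chromosome 7 at 101839988 to 101857194. All are protein-coding, and counts were summed over their exons. The bases before the RefSeq start sites of C1qb, C1qc and Folr2 are shown because they held the motif marked here. C1qb and C1qc are neighbours that rose together, and Folr2 had one of the largest differences. Each is from RefSeq (GRCm38.p6), minus strand, written 5′ to 3′ in the direction of transcription and limited to bases outside the annotated gene. The capitals mark the ETS-type motif AGGAAGT or its reverse complement ACTTCCT, a core that Spi1, the ETS factor of macrophages, can bind. C1qb is chr4:136886201-136886450, C1qc is chr4:136893066-136893164 and Folr2 is chr7:101857195-101857440.
C1qb: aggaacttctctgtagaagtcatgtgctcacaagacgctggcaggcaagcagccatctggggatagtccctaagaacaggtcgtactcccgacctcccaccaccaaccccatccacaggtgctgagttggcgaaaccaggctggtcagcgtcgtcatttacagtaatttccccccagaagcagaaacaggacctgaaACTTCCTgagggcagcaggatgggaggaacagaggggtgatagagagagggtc
C1qc: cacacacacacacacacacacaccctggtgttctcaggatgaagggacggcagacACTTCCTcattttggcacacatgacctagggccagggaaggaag
Folr2: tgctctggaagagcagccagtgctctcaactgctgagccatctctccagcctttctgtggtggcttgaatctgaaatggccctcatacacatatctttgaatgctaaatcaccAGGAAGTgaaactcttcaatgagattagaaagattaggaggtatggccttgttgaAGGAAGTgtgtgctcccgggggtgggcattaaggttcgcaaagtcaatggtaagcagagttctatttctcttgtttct
The first base of the motif lay 53 bases before the start site in C1qb, 195 in C1qc, and 137 and 82 in Folr2. Of the 27 members with a RefSeq window, 8 (29.6%) held the motif on either strand within 250 bases before a start site, beside 2377 of all 27025 genes with a window (8.8%) and 7.69% of the 32851 windows. The 8 were C1qb, C1qc, Folr2 and F13a1, which were called higher in TAC KO than in TAC WT, and Mrc1, Lyz2, Fcgr1 and Ptprc, which were not. All other members called higher (C1qa, Timd4, Cbr2, Cd68, Csf1r, Aif1, Fcer1g and Tyrobp) were not among the 8, for lack of the motif or of a window. The motif was chosen after the members' sequences were read, so its share among the members is no independent count, and a match describes letters only.

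All C1q chains separated the TAC KO libraries from both wild-type groups. C1qb, the B chain, had 48.6, 49.9, 50.05 and 42.6 CPM in the TAC KO libraries, 34.2, 23.4, 31.1 and 33.7 CPM in TAC WT and 26.3, 27.2, 26.6 and 26.9 CPM in Sham WT. Every TAC KO library lay above every wild-type library, and TAC WT 2 was the lowest of the 12. Its log2 fold change in TAC KO versus TAC WT was 0.64 (SE 0.10, adjusted p = 0.000389). C1qa, the A chain, had 52.4, 50.8, 53.1 and 46.1 CPM in TAC KO, 39.5, 28.01, 38.3 and 42 CPM in TAC WT and 33.5, 32.2, 32.2 and 34.5 CPM in Sham WT. Again TAC KO overlapped with neither wild-type group, and the C1qa log2 fold change over TAC WT was 0.46 (SE 0.10, adjusted p = 0.0034). C1qc, the C chain, had 44.4, 44.6, 42.5 and 37.7 CPM in TAC KO, 32.3, 24.01, 30.5 and 30.2 CPM in TAC WT and 25.01, 26.4, 25.4 and 28.2 CPM in Sham WT. Its TAC KO libraries were all above the others, and its log2 fold change was 0.53 (SE 0.09, adjusted p = 0.000588). Summed over the chains, C1q mRNA reached 141 ± 9.48 CPM in TAC KO, 96.8 ± 14.5 CPM in TAC WT and 86.1 ± 2.44 CPM in Sham WT (SD, n = 4 each), a ratio of means of 1.45 between TAC KO and TAC WT. Per kilobase of merged exon, C1qa made up 42.5% ± 0.71 of C1q mRNA in TAC KO, 45% ± 1.1 in TAC WT and 45.5% ± 0.84 in Sham WT. C1qb made up 38.4% ± 0.51 in TAC KO, 35.7% ± 0.59 in TAC WT and 35.1% ± 0.81 in Sham WT, and the C1qb shares of TAC KO (37.9 to 38.9%) did not overlap those of TAC WT (35.2 to 36.6%). C1qc held 19.1 to 19.4% in each group's mean. Its share depends on the length used, since its merged exons span 1931 bases and its longest transcript 1203, so the shares of different chains are not compared.

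**Figure D2:**
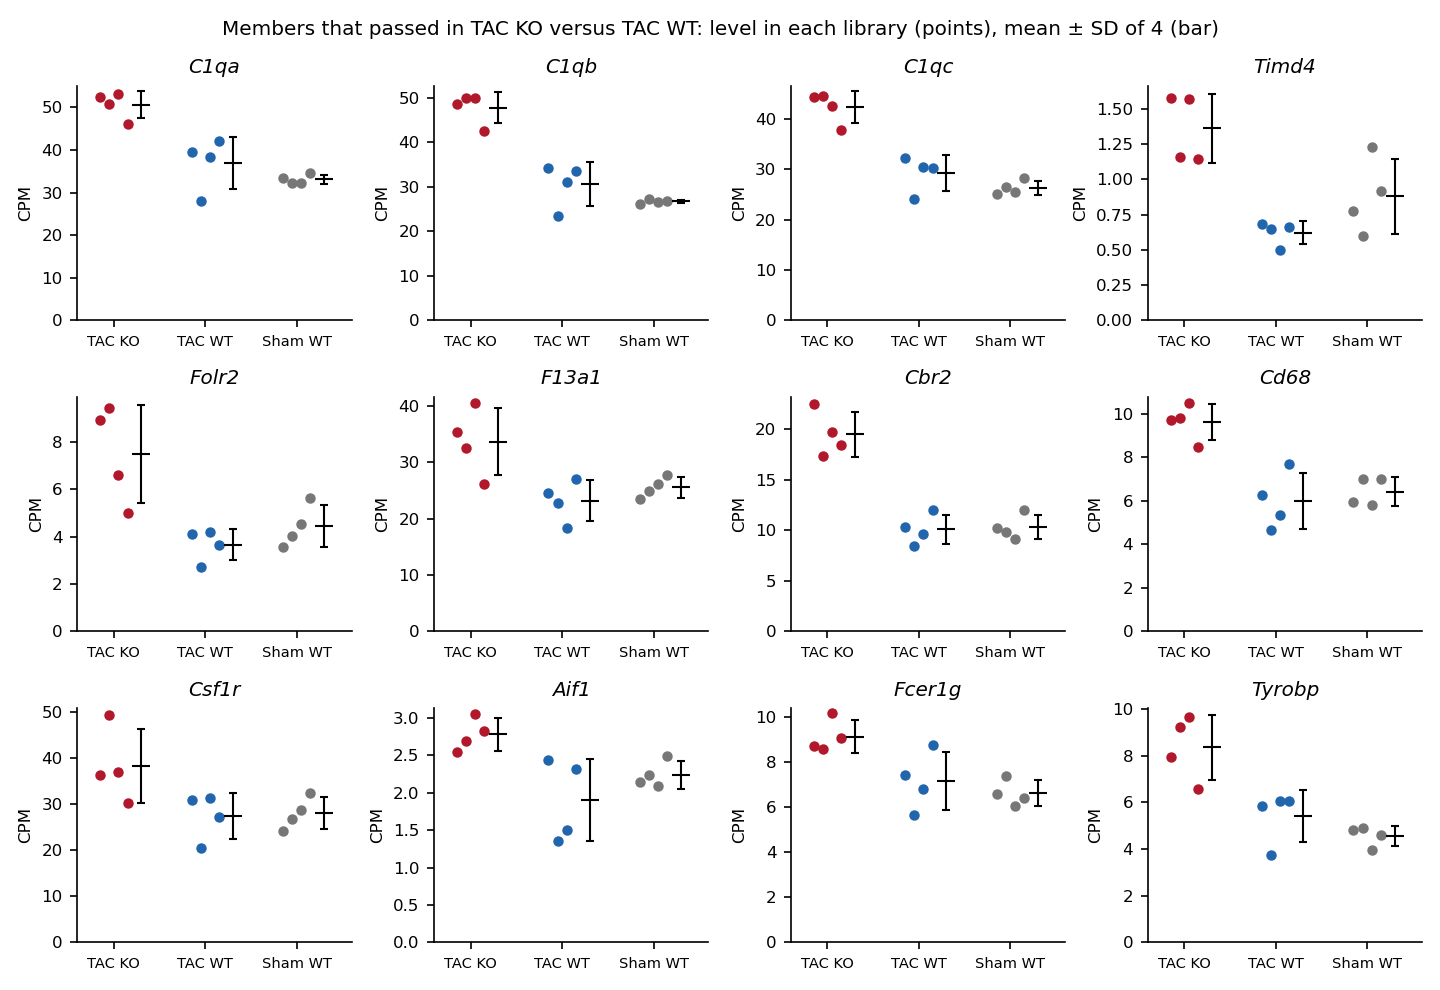
Level in CPM (vertical axis, from 0) of the 12 members called higher in TAC KO than in TAC WT, 1 point per library, with the mean and SD of 4 libraries beside the points. The TAC KO libraries (red) lie above all TAC WT libraries (blue) for 9 of the 12, and overlap them for F13a1, Csf1r and Fcer1g.

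Of the resident macrophage genes, 4 of 8 rose in TAC KO against TAC WT, with a class median log2 fold change of 0.43. Timd4, a receptor for phosphatidylserine on dying cells and a marker of embryonically derived macrophages, had 1.58, 1.16, 1.57 and 1.15 CPM in TAC KO, 0.683, 0.646, 0.502 and 0.661 CPM in TAC WT and 0.773, 0.601, 1.23 and 0.917 CPM in Sham WT. The TAC KO values were all above those of TAC WT, 2 of 4 lay above every Sham WT value, and the counts were low, at 17 to 55 per library. Its log2 fold change over TAC WT was 1.12 (SE 0.23, adjusted p = 0.00243). Folr2, the folate receptor beta of resident macrophages, had 8.93, 9.42, 6.61 and 5.01 CPM in TAC KO, 4.101, 2.74, 4.19 and 3.64 CPM in TAC WT and 3.57, 4.04, 4.51 and 5.65 CPM in Sham WT. All TAC KO libraries lay above all TAC WT libraries and TAC KO 1 and 2 were far above the rest, while TAC KO 4 was below Sham WT 4. For Folr2 the log2 fold change over TAC WT was 1.02 (SE 0.20, adjusted p = 0.00188). Of Folr2's exon bases, 63.1% overlap Gm10602, a gene on the opposite strand with 2.44 CPM in TAC KO and 2.11 CPM in TAC WT on average (log2 fold change 0.21, adjusted p = 0.294, edgeR). The kit marks strand, but the strand setting of the counting is not given in the sources used here.

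Cbr2, a carbonyl reductase that marks a resident-type macrophage signature in several mouse tissues, had 22.5, 17.4, 19.7 and 18.5 CPM in TAC KO, 10.3, 8.49, 9.597 and 11.98 CPM in TAC WT and 10.3, 9.85, 9.17 and 12.03 CPM in Sham WT. The lowest TAC KO library was above the highest wild-type library, while TAC WT and Sham WT overlapped throughout, and the log2 fold change over TAC WT was 0.95 (SE 0.12, adjusted p = 8.68e-05). F13a1, the A chain of coagulation factor XIII, had 35.5, 32.5, 40.5 and 26.2 CPM in TAC KO, 24.5, 22.8, 18.4 and 27.04 CPM in TAC WT and 23.5, 24.9, 26.2 and 27.8 CPM in Sham WT. TAC KO 4 fell inside the TAC WT range and the other three lay above it, with a log2 fold change of 0.54 (SE 0.13, adjusted p = 0.00562). The other 4 resident genes did not pass against TAC WT. Mrc1, the mannose receptor, averaged 22.8 ± 3.71 CPM in TAC KO and 19.9 ± 2.65 CPM in TAC WT (adjusted p = 0.234). Lyve1, a hyaluronan receptor shared with lymphatic vessels, averaged 16.5 ± 2.42 CPM in TAC KO and 14.3 ± 0.563 CPM in TAC WT (adjusted p = 0.117). Cd163, the scavenger receptor for haptoglobin and haemoglobin, had 10.1, 10.4, 10.4 and 7.76 CPM in TAC KO and 7.68, 8.62, 8.65 and 6.03 CPM in TAC WT, with TAC KO 4 far below the other TAC KO libraries (log2 fold change 0.32, SE 0.13, adjusted p = 0.0704). Mertk, a receptor kinase for the engulfment of dying cells, was the only resident gene with a negative difference, at 9.998 ± 0.876 CPM in TAC KO and 11.8 ± 1.44 CPM in TAC WT (log2 fold change -0.24, SE 0.10, adjusted p = 0.0776).

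Among the 13 pan-macrophage and myeloid genes, 3 rose in TAC KO against TAC WT and the class median was 0.15. Cd68, a lysosomal membrane glycoprotein of macrophages, had 9.72, 9.805, 10.5 and 8.502 CPM in TAC KO, 6.29, 4.65, 5.37 and 7.68 CPM in TAC WT and 5.95, 6.99, 5.8 and 7.005 CPM in Sham WT. Every TAC KO library was above every wild-type library, and the log2 fold change over TAC WT was 0.69 (SE 0.13, adjusted p = 0.00181). Csf1r, the receptor for the growth factor that macrophages depend on, had 36.3, 49.4, 36.9 and 30.1 CPM in TAC KO and 30.8, 20.4, 31.4 and 27.1 CPM in TAC WT, with the lowest TAC KO library inside the TAC WT range (log2 fold change 0.48, SE 0.15, adjusted p = 0.0261). Aif1, an actin-binding protein used to stain macrophages, had 2.54, 2.7, 3.05 and 2.83 CPM in TAC KO and 2.43, 1.35, 1.51 and 2.31 CPM in TAC WT, where TAC WT 2 and 3 were much lower than TAC WT 1 and 4 (log2 fold change 0.55, SE 0.18, adjusted p = 0.0274). The calls of Csf1r and Aif1 were lost without TAC WT 2. The exons of Csf1r overlap over 15.1% of their bases with Hmgxb3 on the opposite strand, which averaged 28.5 CPM in TAC KO and 31.4 CPM in TAC WT (adjusted p = 0.191, edgeR).

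The other 10 did not pass. Adgre1, an adhesion receptor typical of mouse macrophages, averaged 8.72 ± 1.09 CPM in TAC KO and 7.16 ± 1.57 CPM in TAC WT. Lyz2, lysozyme, averaged 127 ± 22.2 CPM in TAC KO and 104 ± 22.6 CPM in TAC WT. Lyz2 is uncertain in principle because 96.0% of its transcript matches Lyz1 at 95.8% identity, although Lyz1 itself had 281 counts over the 12 libraries. Ctss, cathepsin S, averaged 15.9 ± 2.38 CPM in TAC KO and 12.9 ± 2.84 CPM in TAC WT. Levels overlapped between TAC KO and TAC WT for each of these. Smaller differences were seen in Cd14, the lipopolysaccharide co-receptor (log2 fold change 0.06), the lysosomal protein Laptm5 (0.14), the pore-forming protein Mpeg1 (-0.09), Ms4a7 (0.07), the tetraspanin Cd53 (0.15) and Cybb, the catalytic subunit of the phagocyte NADPH oxidase (0.06). Ptprc, a phosphatase found on all leukocytes, had the lowest fold change of the 35, with 6.22, 7.33, 7.496 and 6.699 CPM in TAC KO and 9.49, 5.91, 10.4 and 9.22 CPM in TAC WT. All 4 TAC KO values were between TAC WT 2 and the other TAC WT libraries, and the log2 fold change was -0.34 (SE 0.14, adjusted p = 0.0786).

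The Fc class holds receptors that bind antibody and adaptors that pass on their signal, and the adaptors rose while the receptors did not pass. Tyrobp, an adaptor that also serves Trem2, had 7.94, 9.23, 9.66 and 6.58 CPM in TAC KO, 5.82, 3.72, 6.05 and 6.06 CPM in TAC WT and 4.82, 4.897, 3.97 and 4.58 CPM in Sham WT. No TAC KO library overlapped with a wild-type library, TAC WT 2 was the lowest of the 12, and the log2 fold change over TAC WT was 0.63 (SE 0.16, adjusted p = 0.0075). Fcer1g, the signalling chain shared by Fc receptors and also expressed in mast cells, had 8.73, 8.58, 10.2 and 9.05 CPM in TAC KO and 7.41, 5.66, 6.79 and 8.74 CPM in TAC WT. TAC WT 4 lay inside the TAC KO range, and the log2 fold change was 0.36 (SE 0.12, adjusted p = 0.0331). This call was lost in 8 of 17 alternative settings, the fit without TAC WT 2 among them (log2 fold change 0.26, adjusted p = 0.0847). Fcgr1, the high-affinity IgG receptor, averaged 3.47 ± 1.08 CPM in TAC KO and 3.11 ± 1.09 CPM in TAC WT (adjusted p = 0.62). Fcgr3, a low-affinity activating IgG receptor, averaged 10.96 ± 1.23 CPM in TAC KO and 9.53 ± 2.07 CPM in TAC WT (adjusted p = 0.272).

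None of the 3 genes of recruited and lipid-associated macrophages passed between TAC KO and TAC WT. Gpnmb, a glycoprotein of lipid-laden macrophages, had 2.06, 2.51, 1.31 and 1.34 CPM in TAC KO and 1.203, 1.29, 1.33 and 1.14 CPM in TAC WT, with TAC KO 1 and 2 high and the other two near the TAC WT values (log2 fold change 0.53, SE 0.21, adjusted p = 0.07). Lgals3, a galectin secreted by activated macrophages, averaged 4.67 ± 1.05 CPM in TAC KO and 4.04 ± 0.357 CPM in TAC WT (log2 fold change 0.21, SE 0.15, adjusted p = 0.291). Trem2, a lipid-sensing receptor of macrophages, averaged 0.425 ± 0.1102 CPM in TAC KO and 0.413 ± 0.126 CPM in TAC WT (log2 fold change 0.05, SE 0.29, adjusted p = 0.919). Trem2 had only 5 to 17 counts per library, so a modest difference in it was not detectable at this depth.

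The 4 antigen presentation genes encode the alpha and beta chains of MHC class II (H2-Aa, H2-Ab1, H2-Eb1) and Cd74, the invariant chain that guides them. Promoters of H2-Aa (chr17:34287824-34288073, minus strand) and H2-Eb1 (chr17:34305617-34305866, plus strand) are shown because they held the box marked here. MHC class II genes are known to be switched on together through shared promoter boxes. The sequences are from RefSeq (GRCm38.p6), 5′ to 3′ in the direction of transcription, and the capitals mark CTGATTGG, the core of the Y box bound by the factor NF-Y.
H2-Aa: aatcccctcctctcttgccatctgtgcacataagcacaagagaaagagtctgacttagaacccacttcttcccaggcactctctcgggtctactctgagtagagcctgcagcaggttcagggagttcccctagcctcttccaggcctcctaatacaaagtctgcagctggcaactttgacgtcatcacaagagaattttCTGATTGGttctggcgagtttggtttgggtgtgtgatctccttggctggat
H2-Eb1: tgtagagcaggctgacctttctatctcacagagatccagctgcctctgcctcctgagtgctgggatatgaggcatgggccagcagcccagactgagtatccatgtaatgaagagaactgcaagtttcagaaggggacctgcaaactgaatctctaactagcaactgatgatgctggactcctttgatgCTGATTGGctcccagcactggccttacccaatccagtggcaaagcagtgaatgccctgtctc
The first base of the box lay 51 bases before the start of H2-Aa and 62 before that of H2-Eb1. On either strand, 1198 of the 27025 genes with a window (4.43%) held these letters, and among the 27 members with a window they were found in these 2 only. The motif was chosen after the sequences were read. Cd74 had 71.01, 86.1, 70.7 and 88.5 CPM in TAC KO, 72.7, 45.4, 80.8 and 66.6 CPM in TAC WT and 74.4, 71.4, 65.1 and 70.7 CPM in Sham WT. H2-Eb1 had 28.6, 35.6, 29.4 and 37.3 CPM in TAC KO, 29.9, 18.7, 35.5 and 23.7 CPM in TAC WT and 31.6, 28.8, 26.5 and 26.3 CPM in Sham WT. In both, TAC KO 2 and 4 were the highest of the 12 libraries, TAC KO 1 and 3 lay among the wild-type values, and TAC WT 2 was far below all others. H2-Aa averaged 34.5 ± 6.35 CPM in TAC KO and 26.8 ± 7.397 CPM in TAC WT. H2-Ab1 averaged 30.7 ± 4.84 CPM in TAC KO and 25.3 ± 5.48 CPM in TAC WT, with the same library lowest. Log2 fold changes of the 4 ran from 0.25 to 0.36, and their adjusted p-values (edgeR) from 0.111 to 0.184. Without TAC WT 2 the log2 fold changes ran from 0.11 to 0.20.

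Summed CPM gave the level of each role class. Resident genes together reached 121 ± 11.7 CPM in TAC KO, 91.4 ± 5.72 CPM in TAC WT and 94.7 ± 7.496 CPM in Sham WT, and the ranges of TAC KO and TAC WT did not overlap. Antigen presentation genes reached 177 ± 24.8 CPM in TAC KO, 146 ± 34.8 CPM in TAC WT and 153 ± 8.49 CPM in Sham WT, with overlap. The ratio of means of TAC KO to TAC WT was 1.45 for C1q chains, 1.32 for resident, 1.27 for Fc, 1.22 for antigen presentation, 1.21 for recruited and lipid-associated and 1.2 for pan-macrophage genes. Without TAC WT 2 it was 1.35 for C1q chains, 1.3 for resident, 1.2 for recruited and lipid-associated, 1.16 for Fc, and 1.1 for both antigen presentation and pan-macrophage genes. A sum is led by its most abundant genes, such as Lyz2 for the pan-macrophage class. Per kilobase of exon, Lyz2 had the highest level (96.5 CPM per kb in TAC KO, 79.2 in TAC WT and 69.0 in Sham WT), followed over the 12 libraries by Cd74 and C1qa. C1qb came next at 43.9 CPM per kb in TAC KO and 28.2 in TAC WT, and Trem2 was lowest at 0.0859 in TAC KO and 0.0836 in TAC WT.

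**Figure D3:**
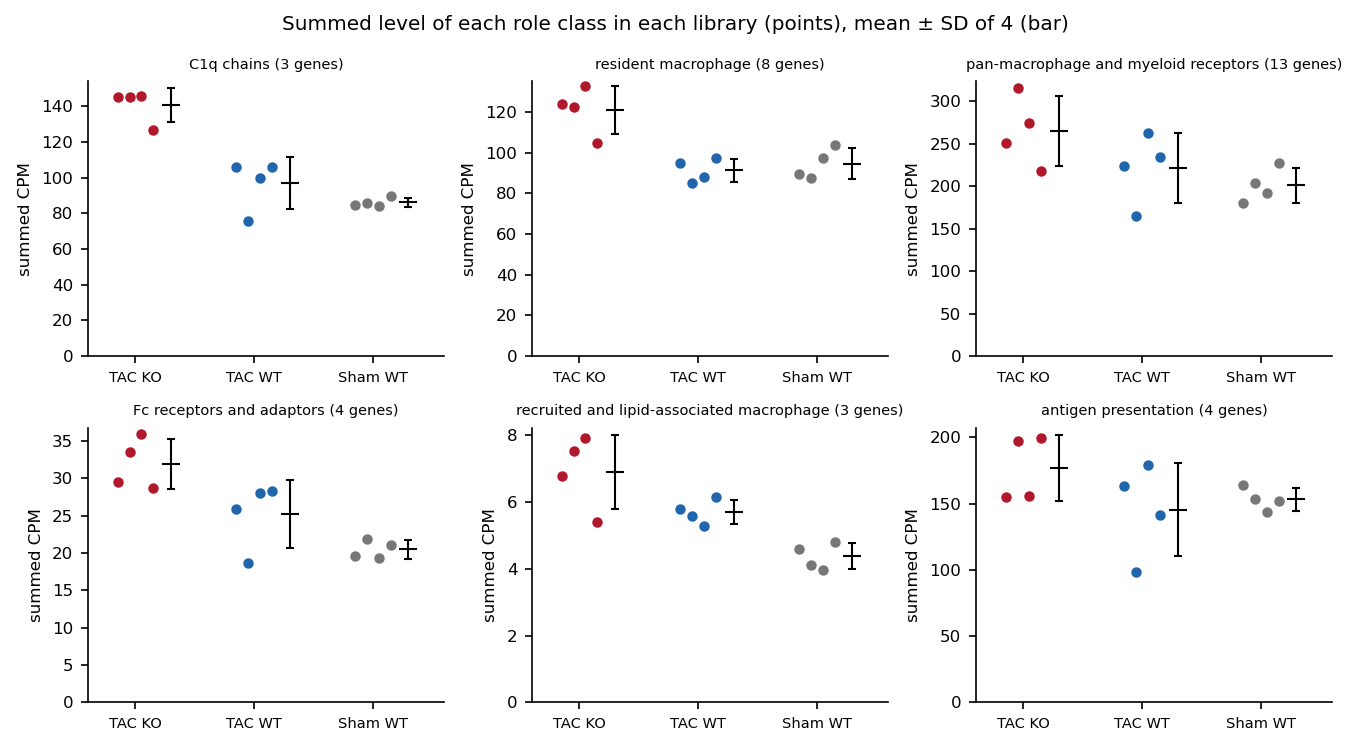
Summed CPM of each role class (vertical axis, from 0) in each library, with the mean and SD of 4 libraries beside the points, in TAC KO, TAC WT and Sham WT. The C1q and resident sums of TAC KO lie above all wild-type libraries, and the antigen presentation sum of TAC WT 2 (98.5 CPM) is the lowest of the 12.

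With all 12 libraries in the fit, few of these genes were called between TAC and sham operation in wild-type mice at 6 weeks. In TAC WT against Sham WT, 1 of 35 members was called higher and 0 lower (2.86% called, beside 19.7% of all tested genes in either direction and 9.67% called higher; edgeR). The member was Cd14, with 7.52, 4.401, 7.796 and 7.68 CPM in TAC WT and 4.46, 5.58, 4.57 and 4.22 CPM in Sham WT: 3 TAC WT libraries lay above all Sham WT libraries and TAC WT 2 fell among them (log2 fold change 0.54, SE 0.17, adjusted p = 0.0355). At an unadjusted p under 0.05, 8 members passed. The share of all tested genes at that looser threshold was not counted, and it cannot lie below the 19.7% called after adjustment. The ranges of Lyve1 (13.6 to 14.8 CPM in TAC WT, 10.8 to 13.1 CPM in Sham WT) and Lgals3 (3.72 to 4.48 CPM in TAC WT, 2.66 to 3.39 CPM in Sham WT) did not overlap, though neither passed (adjusted p = 0.0715 and 0.067). Of the 35 members, only these 2 (5.71%) were higher without overlap, and 0 were lower. Among all 15477 tested genes, 1857 were higher without overlap and 1966 lower, each a larger share than among the members. For the C1q chains the log2 fold changes were 0.16, 0.20 and 0.16, and for the antigen presentation genes they ran from -0.08 to -0.06.

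That count was unstable, and leaving out 1 library moved it most. Without TAC WT 2, 11 members were called between TAC WT and Sham WT, 10 of them higher, beside 10.8% of genes called higher in that fit. They were the C1q chains C1qa (log2 fold change 0.27, adjusted p = 0.00943), C1qb (0.30, adjusted p = 0.00598) and C1qc (0.24, adjusted p = 0.0271), together with Cd14, Ctss, Fcgr1, Fcgr3, Tyrobp, Ptprc and Cd53. Cd163 was the 1 called lower, at -0.41 (adjusted p = 0.047). The resident genes Timd4, Folr2, F13a1, Cbr2 and Mertk were called in neither fit. Each averaged less in TAC WT than in Sham WT over all libraries, but the direction of Cbr2 turned without TAC WT 2 (log2 fold change 0.04). Why TAC WT 2 differed was not tested.

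More members were called between TAC KO and Sham WT than in either of the other comparisons. Of 35 members, 21 were called higher (60%) and 1 lower (62.9% called, beside 27.6% of all tested genes in either direction and 12.8% called higher; edgeR). All 3 C1q chains, all 4 Fc genes, all 3 recruited and lipid-associated genes, 5 of 8 resident and 6 of 13 pan-macrophage genes rose, and none of the 4 antigen presentation genes passed. Ranges did not overlap for 17 members that were higher in TAC KO and 1 that was lower, beside 14.3% and 16.3% of all genes, and 31 of 35 log2 fold changes were above 0, beside 50.1% of all genes. The C1q chains had log2 fold changes of 0.61 (SE 0.10, adjusted p = 0.000642) for C1qa, 0.84 (SE 0.10, adjusted p = 8.68e-05) for C1qb and 0.69 (SE 0.09, adjusted p = 0.000123) for C1qc. Tyrobp was higher by 0.87 (SE 0.16, adjusted p = 0.00131) and Cbr2 by 0.92 (SE 0.11, adjusted p = 0.000114), both on the log2 scale and with no overlap between groups. Ctss (13.6 to 18.1 CPM in TAC KO, 9.54 to 10.3 CPM in Sham WT) and Fcgr3 (9.79 to 12.6 CPM in TAC KO, 6.57 to 7.92 CPM in Sham WT) rose without overlap, though neither was called against TAC WT. Lgals3 rose by 0.63 (SE 0.15, adjusted p = 0.00731), Gpnmb by 0.68 (SE 0.22, adjusted p = 0.0303) and Trem2 by 0.92 (SE 0.33, adjusted p = 0.0492) on the log2 scale. The call of Trem2 was lost in 9 of 16 alternative settings and that of Gpnmb in 5 of 17.

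Mertk was the 1 member that fell in TAC KO against Sham WT, with 9.82, 10.1, 11.1 and 8.99 CPM in TAC KO and 12.2, 11.4, 13.3 and 13.7 CPM in Sham WT. Its groups did not overlap, and its log2 fold change was -0.34 (SE 0.10, adjusted p = 0.0224), a call lost in 5 of 17 alternative settings, removal of the GC and length trends among them. Lyve1 (0.48), Folr2 (0.76), Timd4 (0.63) and F13a1 (0.40) were the other resident genes that rose, and Cd68 (0.58), Cd14 (0.59), Csf1r (0.45), Lyz2 (0.48) and Cd53 (0.52) the other pan-macrophage genes (log2 fold changes). Of 17 alternative settings, the call was lost in 11 for Timd4 (DESeq2, limma voom and removal of the GC and length trends among them), in 8 for Cd53, in 7 for Csf1r, in 6 each for F13a1, Lyz2 and Fcgr1, in 2 for Cd14 and in 1 for Fcer1g. The other 13 members did not pass: Aif1 (0.32), Adgre1 (0.34), Mrc1 (0.27), Ms4a7 (0.48), Laptm5 (0.19), Mpeg1 (0.07), Cd163 (-0.04), Ptprc (-0.17), Cybb (-0.22) and the antigen presentation genes (0.17 to 0.30). The count fell to 14 without Sham WT 1 or without Sham WT 3. TAC KO against TAC WT and TAC KO against Sham WT share the TAC KO libraries, so their calls are not independent.

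**Figure D4:**
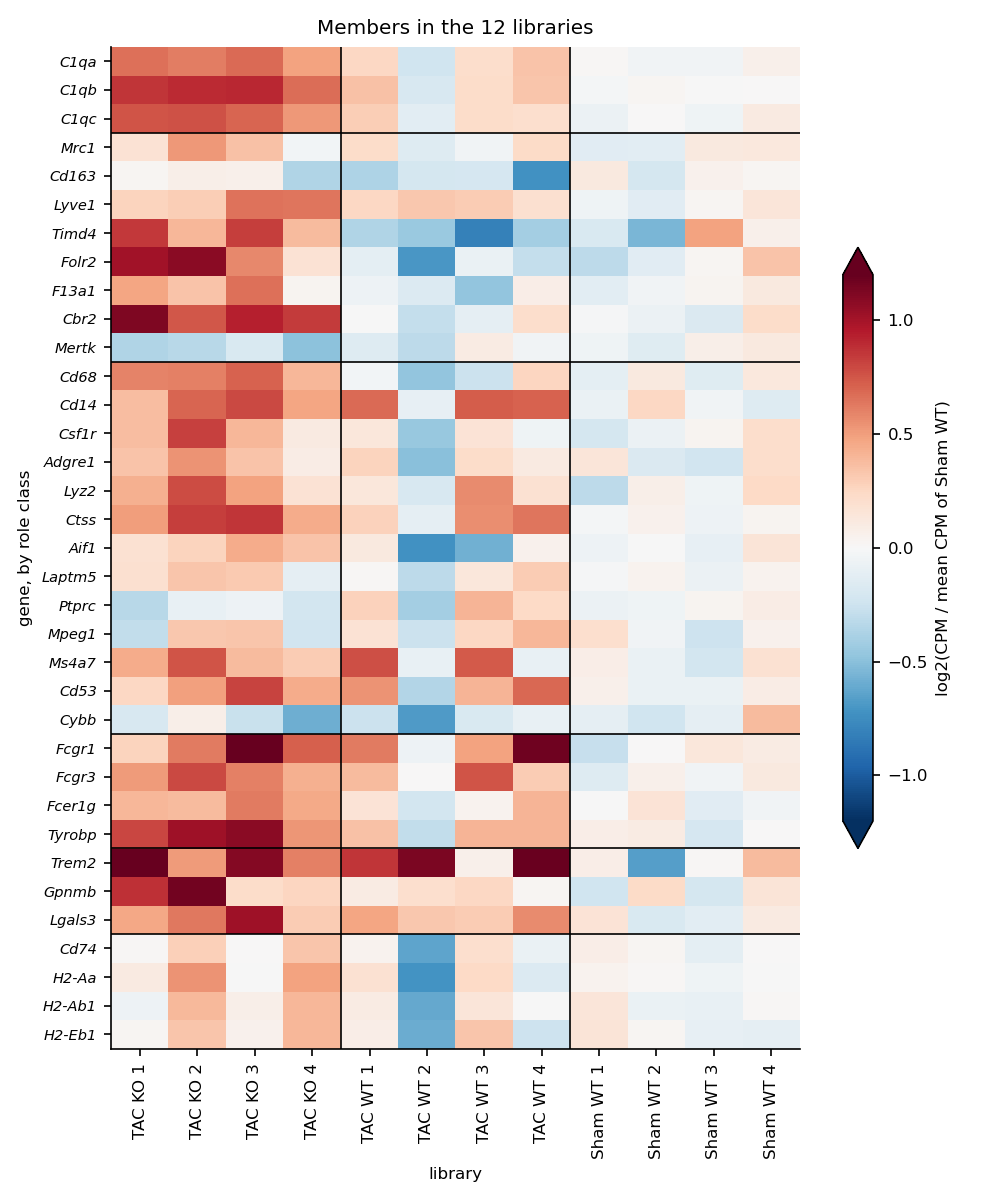
Log2 ratio of each member's CPM to its mean in Sham WT (colour, red above and blue below, with values beyond 1.2 in the end colours) in the 12 libraries, TAC KO at the left, with lines between groups and between role classes. The C1q rows are red in all 4 TAC KO libraries, and TAC WT 2 is the lowest of the 12 libraries for 21 of the 35 rows.

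Removing TAC WT 2 also changed which members separated TAC KO from TAC WT. In that fit 9 members were called higher and 2 lower, beside 15.4% of genes called higher and 16.1% called lower. The 9 were C1qa (0.34, adjusted p = 0.00192), C1qb (0.53, adjusted p = 0.000191), C1qc (0.45, adjusted p = 0.000741), Cd68, Timd4, Folr2, F13a1, Cbr2 and Tyrobp. The 2 called lower were Ptprc, with a log2 fold change of -0.48 (adjusted p = 0.00201), and Mertk, with -0.31 (adjusted p = 0.0297). The median of the 35 members was then 0.18, and no antigen presentation gene was called. The uncalled log2 fold changes of Cd14 (-0.11), Ms4a7 (-0.06), Cybb (-0.05) and Cd53 (-0.03) turned below 0.

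Because TAC KO libraries held relatively more counts from GC-rich genes and from short genes, GC content and length were set beside the calls. The 12 members called higher in TAC KO than in TAC WT had a median transcript GC content of 53.7% and a median length of 1156 bases, and the 23 others 48.1% and 2893 bases. Over all tested genes the medians were 49.6% and 3194 bases. With each library's trends with GC content and length removed, 12 members were again called higher and 10 of them were shared. Over all genes, 2127 were then called higher and 1909 lower, beside 2428 higher and 2682 lower as fitted. C1qb then stood at 0.46 (adjusted p = 0.00328), C1qc at 0.35 (adjusted p = 0.00704) and C1qa at 0.26 (adjusted p = 0.0489), in log2 units. Of the resident genes, Timd4 stood at 1.13, Folr2 at 0.91, Cbr2 at 0.77 and F13a1 at 0.62. Fcer1g and Aif1 were no longer called, and Mrc1 (0.37, adjusted p = 0.0252) and Cd163 (0.39, adjusted p = 0.0321) were called in their place.

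**Figure D5:**
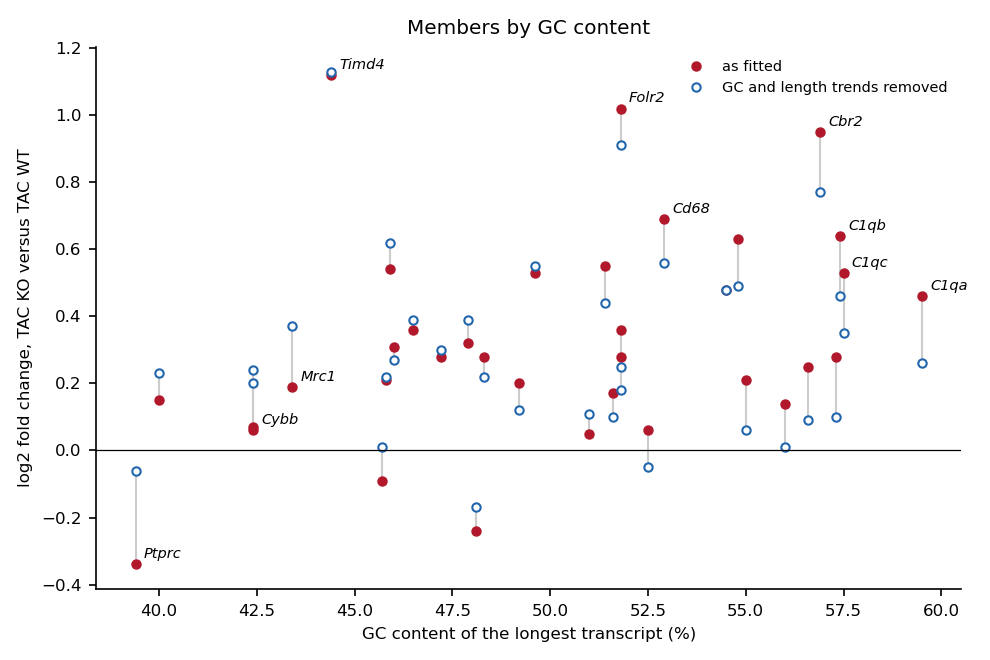
Log2 fold change in TAC KO versus TAC WT (vertical axis) against the GC content of each member's longest transcript in percent (horizontal axis), as fitted (red) and with each library's GC and length trends removed (open blue), joined by a line per gene. C1qa, at 59.5% GC, stood at 0.46 as fitted and 0.26 with the trends removed, while Timd4, at 44.4% GC, stood at 1.12 and 1.13.

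Genes that work with the members were counted from lists written for this purpose. In TAC KO against TAC WT, 15.7% of all tested genes were called higher and 17.3% lower. Whether a list differed from these shares was not tested. Of 9 tested complement components other than C1q, 2 rose and 0 fell in TAC KO against TAC WT (median log2 fold change 0.11). One was Fcna, a ficolin of macrophages, with 2.61, 1.99, 2.91 and 2.35 CPM in TAC KO, 0.711, 0.8003, 0.709 and 0.661 CPM in TAC WT and 0.862, 1.46, 1.17 and 1.83 CPM in Sham WT (log2 fold change 1.77, SE 0.21, adjusted p = 8.84e-05). The other was C7, part of the membrane attack complex (0.82, SE 0.20, adjusted p = 0.00642). The Fcna groups did not overlap, and Fcna fell in TAC WT against Sham WT (-0.87, SE 0.23, adjusted p = 0.0143). C1s1 and C1ra, the proteases of the C1 complex, did not pass, at 31.4 ± 5.37 CPM in TAC KO and 29.1 ± 4.39 CPM in TAC WT for C1s1, and 10.1 ± 2.04 CPM in TAC KO and 8.42 ± 1.547 CPM in TAC WT for C1ra. Of 15 regulators and receptors, 5 rose and 1 fell. The regulators that rose were 3 without TAC WT 2. On the log2 scale, Vtn, vitronectin, rose by 0.85 (SE 0.08, adjusted p = 2.14e-05) and Clu, clusterin, by 0.36 (SE 0.11, adjusted p = 0.0222). Vsig4, a complement receptor of resident macrophages, rose by 1.04 (SE 0.34, adjusted p = 0.0283), with the call lost in 6 of 16 alternative settings. Cd93, a lectin-like receptor of endothelial and myeloid cells, had a log2 fold change of -0.63 (SE 0.11, adjusted p = 0.00113). C4b, which is cleaved after C1q binds, was higher in TAC WT than in Sham WT (log2 fold change 1.06, SE 0.22, adjusted p = 0.00408) and did not pass between TAC KO and TAC WT (-0.11).

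Of 10 macrophage transcription factors, 2 rose and 1 fell in TAC KO against TAC WT, beside 15.7% of all tested genes called higher and 17.3% lower. Spi1, the factor on which macrophage development depends, had 6.73, 6.91, 6.897 and 5.296 CPM in TAC KO and 4.97, 2.77, 5.05 and 5.25 CPM in TAC WT, with TAC WT 2 far below the rest (log2 fold change 0.52, SE 0.17, adjusted p = 0.0291). Cebpa rose by 0.36 (SE 0.10, adjusted p = 0.0125) on the log2 scale, and Runx1 had a log2 fold change of -0.64 (SE 0.21, adjusted p = 0.0294). The call of Spi1 was lost in 6 of 17 alternative settings, though not without TAC WT 2, and that of Runx1 in 7 of 17. None of these 3 was called with the GC and length trends removed. Without TAC WT 2, 2 transcription factors rose and 2 fell. Of 16 further macrophage markers, 4 rose and 1 fell. Clec10a, a lectin of resident-type macrophages, rose most, with 2.405, 2.51, 2.08 and 1.98 CPM in TAC KO and 1.28, 0.616, 0.679 and 0.955 CPM in TAC WT and no overlap (log2 fold change 1.33, SE 0.22, adjusted p = 0.000705), and it was called in all 17 alternative settings. Pld4 (0.50, SE 0.17, adjusted p = 0.0355) and Slc11a1, a metal transporter of phagocytes (0.42, SE 0.15, adjusted p = 0.0421), rose as well, but both calls were lost in 8 of 17 alternative settings, without TAC WT 2 and with the GC and length trends removed among them. Ms4a4a had a log2 fold change of -1.03 (SE 0.32, adjusted p = 0.0228), which was lost in 6 of 16 alternative settings.

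Of 10 recruited monocyte markers, 0 rose and 1 fell, beside 15.7% of all tested genes called higher and 17.3% lower. It was the orphan nuclear receptor Nr4a1, which is also expressed outside monocytes (log2 fold change -1.30, SE 0.27, adjusted p = 0.00289). Ccr2, the chemokine receptor that defines recruited monocytes, had a log2 fold change of -0.60 (SE 0.23, adjusted p = 0.0574) and did not pass. Of the 10, 2 were called lower without TAC WT 2. Against Sham WT, 3 of these 10 rose in TAC WT: Vcan, versican (1.34, SE 0.26, adjusted p = 0.00262), Ace (0.69, SE 0.13, adjusted p = 0.00256) and Nr4a1 (1.39, SE 0.27, adjusted p = 0.00276). With all 12 libraries, 9.67% of all tested genes were called higher there. The others of the 10 did not pass, at log2 fold changes of -0.34 (Itgal) to 0.46 (Ccr2, adjusted p = 0.177). In Sham WT, Vcan, Ace and Nr4a1 averaged 15.4, 56.9 and 42.0 CPM, beside 4.18 CPM for Ccr2. The part of monocytes in the 3 rises was not tested. Without TAC WT 2, 4 of the 10 rose, beside 10.8% of genes. Csf1, the ligand of Csf1r, rose in TAC WT against Sham WT (0.35, SE 0.10, adjusted p = 0.0221) and did not pass between TAC KO and TAC WT (-0.03), nor did the other two growth factor genes tested. Of these 3, 1 was called lower without TAC WT 2.

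Of 19 lysosome genes, 11 rose and 0 fell in TAC KO against TAC WT, with a median log2 fold change of 0.23. Of all tested genes, 15.7% were called higher and 17.3% lower. Log2 fold changes of those that passed were, for example, Ctsh, cathepsin H (0.41, SE 0.07, adjusted p = 0.00073), Grn, progranulin (0.44, SE 0.08, adjusted p = 0.000931), and Psap, prosaposin (0.40, SE 0.07, adjusted p = 0.000952). Ctsh and Psap were lower in TAC WT than in Sham WT, with log2 fold changes of -0.42 (SE 0.07, adjusted p = 0.000837) and -0.31 (SE 0.07, adjusted p = 0.00695). Many heart cells express these genes. With the GC and length trends removed 10 rose, and without TAC WT 2 the count was 8. A list of 13 tested genes held partners of MHC class II, such as loading and regulatory genes, and the costimulators Cd80, Cd86 and Cd40. Of the 13, 4 rose and 0 fell (log2 fold changes in brackets): H2-DMa (0.58, SE 0.13, adjusted p = 0.00541), H2-DMb2 (0.65, SE 0.23, adjusted p = 0.0428), Ifi30, a thiol reductase of antigen processing (0.50, SE 0.13, adjusted p = 0.00871), and Rfxank, a subunit of the factor that binds the X box (0.37, SE 0.11, adjusted p = 0.0175). H2-DMb2 was lost in 10 of 16 alternative settings, without TAC WT 2 among them. Ciita, the master activator of MHC class II, had a log2 fold change of -0.14 (SE 0.20, adjusted p = 0.619), and 0 of 11 MHC class I genes passed.

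Of 13 genes of dying-cell clearance, 1 rose and 3 fell in TAC KO against TAC WT, beside 15.7% of all tested genes called higher and 17.3% lower. On the log2 scale, Gas6, a ligand of Mertk, rose by 0.26 (SE 0.06, adjusted p = 0.00417), while Pros1, protein S and another Mertk ligand, had -0.26 (SE 0.09, adjusted p = 0.0322), Itgav -0.38 (SE 0.09, adjusted p = 0.00508) and Itgb3 -1.22 (SE 0.28, adjusted p = 0.00509). The calls of Gas6, Pros1 and Itgav were lost with the GC and length trends removed. Among 12 partners of lipid-associated macrophages, Apoe rose by 0.39 (SE 0.12, adjusted p = 0.0221) and Plin2 by 0.38 (SE 0.11, adjusted p = 0.0182), both lost with the trends removed and Apoe also without TAC WT 2, and Abcg1, a cholesterol exporter, had -0.67 (SE 0.14, adjusted p = 0.00246). Of 6 NADPH oxidase genes only Cyba rose (0.38, SE 0.09, adjusted p = 0.0065, lost with the trends removed), and of 11 genes of ITAM signalling Syk alone passed (-0.41, SE 0.14, adjusted p = 0.0307).

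In TAC WT against Sham WT the same lists gave other calls. Of the complement components 2 rose, C4b and Masp1 (0.67, SE 0.21, adjusted p = 0.0346), a protease of the lectin pathway. Fcna fell. Of the regulators Serping1, the inhibitor of C1r and C1s, rose (0.28, SE 0.09, adjusted p = 0.0321) and Cd59a fell (-0.33, SE 0.07, adjusted p = 0.00341). The transcription factors Cebpb (0.87, SE 0.23, adjusted p = 0.0167) and Runx1 (0.97, SE 0.21, adjusted p = 0.0054) rose, as did 1 of 16 further macrophage markers, the lectin receptor Clec4n (1.33, SE 0.28, adjusted p = 0.00412). Of the ITAM genes Syk (0.63, SE 0.14, adjusted p = 0.00477) and Plcg2 (0.48, SE 0.12, adjusted p = 0.011) rose. Of the list of MHC class II partners and costimulators, the costimulator Cd80 alone rose (1.17, SE 0.23, adjusted p = 0.00262). The lysosome list had 3 genes that rose and 2 that fell. Without TAC WT 2, 3 regulators, 3 transcription factors, 2 further macrophage markers and 3 ITAM genes rose, beside 10.8% of genes called higher. In TAC KO against Sham WT, 12 of 19 lysosome genes, 3 of 9 complement components, 6 of 15 regulators and receptors, 4 of 10 transcription factors and 6 of 16 further macrophage markers rose, and of these 5 lists only the regulators had genes that fell (2). Of all tested genes, 12.8% were called higher and 14.8% lower in that comparison. Values in brackets are log2 fold changes.

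Markers of other cells moved in part with the members. In TAC KO against TAC WT, 15.7% of all tested genes were called higher and 17.3% lower. Of 5 mast cell markers, 3 rose in TAC KO against TAC WT (Tpsb2, Cma1 and Mcpt4). The sum over all 7 genes of the mast cell list was 6.56 to 9.39 CPM in TAC KO, 5.14 to 10.69 in TAC WT and 7.67 to 8.71 in Sham WT. All sums given here are over whole lists, including genes not called or too low to be tested. The part of mast cells in the rise of Fcer1g was not tested. Of 5 neutrophil markers 1 rose, Mmp9, and the defining S100a8 and S100a9 did not pass. The sum ran from 5.43 to 22.1 CPM in TAC KO, with S100a9 at 9.07 in TAC KO 1, from 5.003 to 7.11 in TAC WT and from 3.59 to 9.91 in Sham WT. Of 10 B cell markers Ighm rose and Cd79a and Cd79b did not pass, with sums of 14.6 to 25.1 CPM in TAC KO, 11.97 to 17.4 in TAC WT and 12.7 to 22.2 in Sham WT. No T cell marker (0 of 5 tested) and no NK cell marker (0 of 1) passed, and T cell sums were 3.48 to 4.98 CPM in TAC KO, 3.42 to 5.18 in TAC WT and 4.18 to 5.56 in Sham WT. Of 5 dendritic cell markers Zbtb46, also an endothelial gene, fell, and the defining Flt3, Xcr1 and Clec9a were too low to be tested. Of 8 lymphatic endothelial markers 2 fell, Flt4 and Mmrn1, with sums of 103.5 to 112.8 CPM in TAC KO and 116.6 to 139.6 in TAC WT and 118.5 to 142.4 in Sham WT, while Lyve1, also expressed there, averaged 16.5 ± 2.42 CPM in TAC KO and 14.3 ± 0.563 CPM in TAC WT. Of 11 blood endothelial markers 2 fell (Kdr and Tek), and of 11 fibroblast markers 4 rose (Tcf21, Dpep1, Gsn and Dpt) and 0 fell. Among 9 markers of smooth muscle and pericytes Tagln, Cnn1 and Kcnj8 rose and Rgs5 fell, and of 11 cardiomyocyte markers Tnni3, Myl3 and Pln rose and 0 fell. Red blood cell and adipocyte markers did not pass. Without TAC WT 2 the calls of Ighm, Mmp9, Mcpt4, Mmrn1 and Tcf21 were lost, and 1 mast cell, 1 red blood cell and 3 blood endothelial markers were called lower. The part of these cells in the members' differences was not tested.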

How the data were processed

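The 12 stranded, polyadenylated RNA libraries of mouse heart (4 per group) were deposited as raw counts per Ensembl gene by the authors; per the submitters' processing notes the build was GRCm38 and the tools were featureCounts 1.6.4, STAR, bcl2fastq, Trim Galore 0.5.0, StringTie 1.3.5, DESeq2, FastQC 0.11.8 and MultiQC 1.7, with no role or order given. The strand setting, annotation release and treatment of multimapping reads are not given in the sources used here. Each file held 54146 records, and every record named a gene. Total counts per library were 26288519 to 35945770.

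Genes kept by filterByExpr (15477) were scaled by TMM and tested with edgeR's quasi-likelihood F-test over all 12 libraries, with group as the only term and Benjamini-Hochberg adjustment over all tested genes (edgeR 4.0.16, R 4.3.3). Calls used an adjusted p under 0.05. This test gave every fold change, SE and adjusted p in the text unless another is named. Levels are TMM-scaled CPM, given as the value in each library 1 to 4 or as mean ± SD (n = 4). Levels compared between genes are per kilobase of merged exon (GENCODE vM21, GRCm38). Transcript similarity was checked with minimap2. Promoter windows came from RefSeq tables, in which 27 of 35 members had an entry.

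The 35 members, the pathway lists and the marker lists were chosen with earlier results of these data known. The rule for named genes took all 35 members, Nron, genes overlapping or neighbouring a member, from each list up to 5 genes called in TAC KO against TAC WT and up to 3 called in TAC WT against Sham WT with the smallest p, and the first 3 markers of each other cell type; C1ra, C1s1, Ccr2 and Ciita were added after their values were seen, for their roles. The text gives values for the genes of the rule that bear on the members. Some genes of the lists are not reported here. Alternatives were DESeq2 1.42.0, limma voom (limma 3.58.1), scaling by RLE or by the upper quartile, all genes kept however low, at least 1 CPM in 4 libraries, removal of GC and length trends, 1 surrogate variable (sva 3.50.0), the 2 groups alone and leaving out each library, 17 settings per comparison.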

Additional observations from a re-analysis of the deposited data

Results flagged for a closer look

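Of 105 sets of 4 libraries (35 members in 3 groups), 3 held a library far from the other three by Dixon's test, which flags about 1 in 20 sets by chance. Cd14 was low in TAC WT 2, at 4.401 CPM, against 7.518 to 7.796 CPM in the other TAC WT libraries; this library bears on the call of Cd14 in TAC WT against Sham WT. Tyrobp was low in TAC WT 2 as well, at 3.724 CPM, with 5.823 to 6.063 CPM in TAC WT 1, 3 and 4, and the Tyrobp call in TAC KO against TAC WT was kept without that library. Cd163 was low in TAC KO 4, at 7.758 CPM, against 10.1 to 10.45 CPM in the other TAC KO libraries.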

How the results depend on the processing

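Between TAC KO and TAC WT the count of members called was 12, with 10 to 13 under other tools, scalings, filters and covariates and 11 to 14 with a library left out. C1qa, C1qb, C1qc, Cd68, Timd4, Folr2, F13a1, Cbr2 and Tyrobp were called higher in all 17 settings; Csf1r lost its call in 4, Aif1 in 6 and Fcer1g in 8. Between TAC WT and Sham WT the count of 1 became 3 with DESeq2, with GC and length trends removed and with the 2 groups alone, 4 with no low-count filter and 6 with limma voom, and it ran from 0 to 11 with a library left out, the 11 being without TAC WT 2. Cd14 lost its call without any of TAC WT 1, 3 and 4 or Sham WT 1, 3 and 4. Between TAC KO and Sham WT the count of 22 was 18 to 22 in other settings and 14 to 20 with a library left out, 14 without Sham WT 1 or Sham WT 3. The cause of these changes was not tested. Among all genes, 5110 were called between TAC KO and TAC WT, 4019 to 5225 in other settings and 3963 to 5080 with a library left out. Between TAC WT and Sham WT these counts were 3051, 2843 to 4288 and 2251 to 3474. Between TAC KO and Sham WT they were 4273, 3262 to 5200 and 3070 to 3851. The median log2 fold change of all genes lay within 0.024 of 0 under each scaling. No paired analysis was possible because the labels give no replicate numbers. Trem2 and Timd4 had the lowest counts, so small differences in them were not detectable at this depth.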
